A study of Mus musculus with 34 samples.

Results

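The genes described here encode voltage-gated and related ion channels, and their RNA was measured in cultured mouse ependymal cells that lacked Rfx1, Rfx2 or Rfx3. Members were all genes of the deposited count table whose mouse symbol starts with Kcn, Cacna, Cacnb or Cacng, or with Scn and a digit. Kcnmb1 and Kcnj13 were left out by the rule, and a gene had to reach at least 10 counts in 4 or more of the 34 libraries. Of the 21647 genes in the table, 132 matched by symbol, 104 of them passed the count rule and 28 did not. Just inside the rule stood Cacna1f, Kcne4, Kcnh6 and Kcnj11, which reached 10 counts in 4 libraries, and just outside stood Kcnb2, which did so in 3. All 104 members are annotated as protein-coding. They comprise 30 pore subunits of voltage-gated potassium channels and 11 of their auxiliary subunits, 10 calcium- or sodium-activated potassium channel genes, 9 inward rectifiers and 9 potassium channels with a pair of pore domains in each subunit. The remaining members are 10 pore subunits and 8 auxiliary subunits of calcium channels, 5 Cacng genes, 7 pore subunits and 4 auxiliary subunits of sodium channels, and Kcnrg.

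There were 4 libraries of Rfx1-/- cells (Rfx1_KO) and 4 of their wild-type controls (Rfx1_WT), 6 of Rfx2-/- cells (Rfx2_KO) and 8 of theirs (Rfx2_WT), and 6 each of Rfx3-/- cells (Rfx3_KO) and their controls (Rfx3_WT). All were cells of the lateral ventricle walls of C57BL/6 embryos at E18.5, grown in culture and then kept without serum for 4 days before bulk RNA sequencing. The titles of all samples also carry the term OF1, which the labels do not explain. The labels do not say whether replicates came from separate embryos, so the p-values measure the spread between these libraries.

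Ependymal cells form the multiciliated lining of the brain ventricles, and RFX transcription factors bind X-box sequences in the promoters of many cilium genes. Ion channel proteins consist of pore-forming subunits, which carry the current, and auxiliary subunits, which change gating or transport to the membrane. In glial cells, ependymal cells included, inward rectifier and background potassium channels hold the membrane potential close to the potassium equilibrium, and the inward rectifiers take up potassium from the extracellular space.

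Total counts ran between 18.2 and 53.4 in units of 1e6 per library. The targeted gene had a lower mean in the knockout of each line, as mean ± SD in CPM, the counts per 1e6 counts of a library: Rfx1 was at 25.2 ± 5.01 CPM in Rfx1_KO against 66.6 ± 10.6 CPM in Rfx1_WT (n = 4 each), Rfx2 at 49.3 ± 4.33 CPM in Rfx2_KO (n = 6) against 106 ± 14.6 CPM in Rfx2_WT (n = 8), and Rfx3 at 39.8 ± 9.16 CPM in Rfx3_KO against 174 ± 17.3 CPM in Rfx3_WT (n = 6 each). For Rfx1 in its own line the log2 difference was -1.40 ± 0.16 (SE), and the adjusted p of 0.0687 (edgeR's quasi-likelihood test) did not pass the threshold of 0.05. Several libraries stand apart. Mcidas, a coactivator at the top of the multiciliation programme, was at 66.6 to 93.5 CPM in Rfx3_KO libraries 1 to 3 and at 13.2 to 22.3 CPM in libraries 4 to 6, against 68.0 to 111 CPM in Rfx3_WT. The summed level of 12 ependymal markers, all detected in every group, was 2325 to 2492 CPM in Rfx3_KO libraries 1 to 3 and 909 to 1103 CPM in libraries 4 to 6, against 2852 to 3540 CPM in Rfx3_WT. Rfx3_KO library 3 differed by gene length: relative to the Rfx3_WT mean, the median log2 ratio was 0.63 over 1785 genes with under 2 kb of exon and -0.54 over 2619 genes with over 8 kb. In the other 33 libraries the long genes' median minus the short genes' lay between -0.14 and 0.15. Of 72 channel genes with a mean of at least 1 CPM in the Rfx3 line, 22 were lowest of all 12 libraries in Rfx3_KO library 3. The same count over all genes was not made. The 24 of these channel genes with over 8 kb of exon had a median log2 ratio of -0.38 in that library. In the Rfx2 line, the oligodendrocyte precursor marker Pdgfra was at 64.9 to 101 CPM in Rfx2_KO libraries 1 to 3 and at 70.2 and 85.4 CPM in Rfx2_WT libraries 1 and 2, with 1.78 to 10.1 CPM in the others. Rfx3_WT library 6 had 102 CPM of Pdgfra, against 1.99 to 3.98 CPM in the other Rfx3_WT libraries. Rfx3_KO libraries 1 to 6 had 40.0, 4.91, 5.13, 100, 135 and 45.3 CPM, so libraries 4 to 6 were also high.

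**Figure D1:**
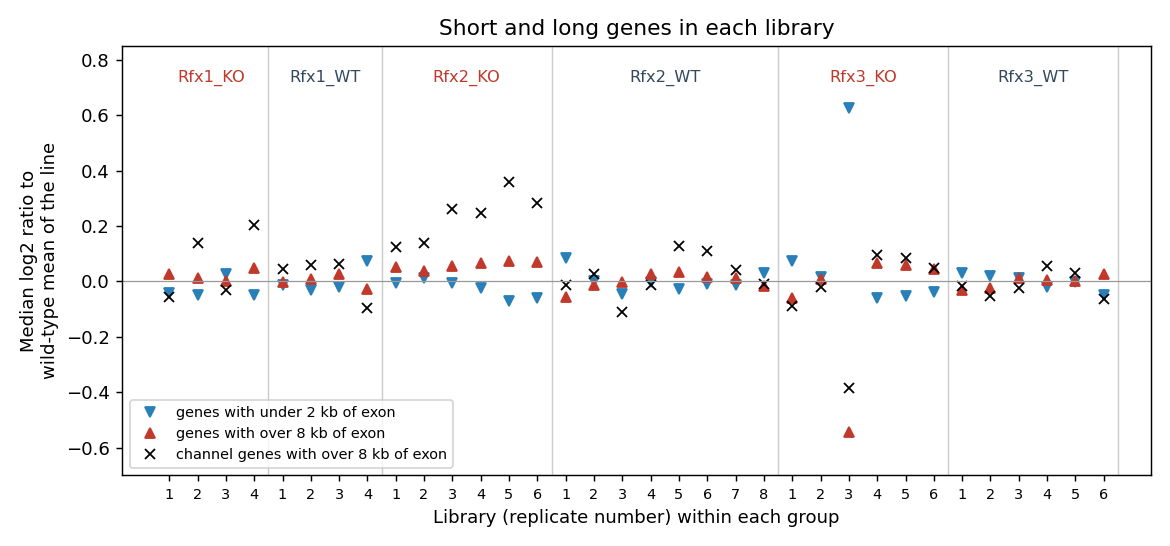
Median log2 ratio to the wild-type mean of the same line in each of the 34 libraries, for all genes tested with under 2 kb of exon (blue), all with over 8 kb (red) and channel genes with over 8 kb (crosses). Rfx3_KO library 3 stands apart, with 0.63 for short genes and -0.54 for long genes.

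Kcnj10, whose product is the main inward rectifier of astrocytes, had the highest level per kb of exon of the channel genes in wild-type cells. It averaged 155 ± 26.8 CPM per kb over the 18 wild-type libraries, 26.0% of the summed level of the 104 members. Kcne1l, an auxiliary subunit of voltage-gated potassium channels also called Kcne5, followed with 88.4 ± 27.3 CPM per kb. The next 4 were Cacng7, a relative of calcium channel gamma subunits that acts on AMPA receptors (50.2 ± 4.06 CPM per kb), the background potassium channels Kcnk2 (46.5 ± 6.30) and Kcnk1 (41.9 ± 5.86), and Kcnj16, whose subunit joins that of Kcnj10 (28.5 ± 5.42). The A-type potassium channel gene Kcnd3 (17.8 ± 2.16) and the P/Q-type calcium channel gene Cacna1a (13.0 ± 1.70) came after them, and these 8 genes held 74.1% of the summed level. Neighbours in this order from Cacng7 to Kcnk1 differed by less than their SD across libraries. By class, inward rectifiers held 31.2% of the summed level, auxiliary subunits of voltage-gated potassium channels 17.6% and the background class 16.7%. Sodium channel pore subunits held 0.596%.

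**Figure D2:**
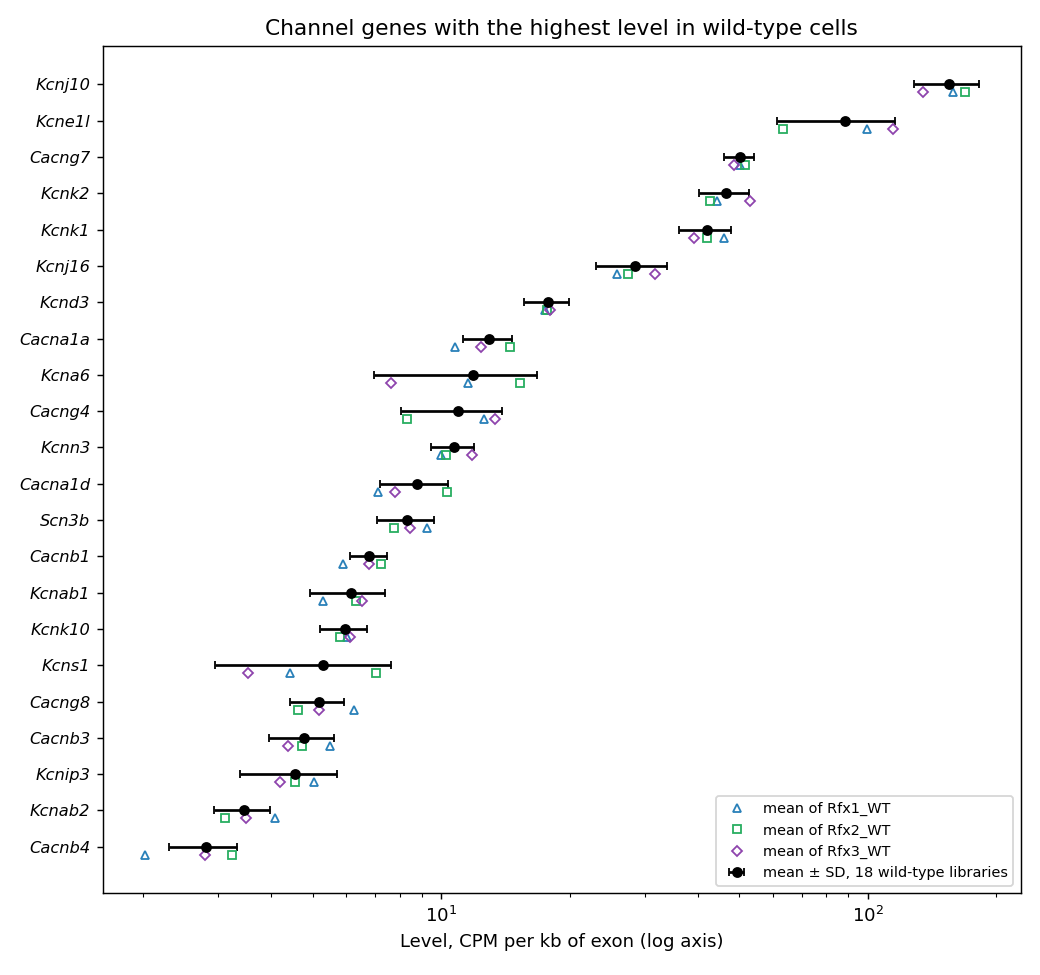
Level of 22 of the 25 highest channel genes in wild-type cells, in CPM per kb of exon on a log axis, as mean ± SD over 18 libraries (black) and as the mean of each wild-type group (open symbols). Kcnj10 leads with 155 CPM per kb, and Kcne1l has 63.2 in Rfx2_WT, 99.6 in Rfx1_WT and 115 in Rfx3_WT.

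Promoter sequence from RefSeq (GRCm38.p6) was at hand for 77 members, and the 250 bases before each start site were searched on both strands for letters of the X-box. The half-site GTTGCC lay in this window for 14 of the 77 members, 18.2%, against 11.8% of 27025 genes. A longer form, GTNNCC and GNAAC with 3 bases between them, whose matches can include a half-site, was found for Kcnab2, Kcnip3 and Kcnj9, 3 of 77 members, against 2.07% of all genes. Shown are 3 of the 5 members with a match that were called in both the Rfx2 and the Rfx3 line: Kcnc1 (chr7:46396218-46396467, + strand), Kcnj16 (chr11:111023610-111023859, + strand, the fourth of its 4 annotated start sites) and Kcnab2 (chr4:152448856-152449105, - strand, the third of 3 start sites). Capitals mark the half-site on the reverse strand in Kcnc1, 141 bases upstream, and in Kcnj16, 246 and 135 bases upstream. In Kcnab2 they mark the longer form, 80 bases upstream, whose last 6 letters are a half-site. A match is a run of letters, and no binding was measured here.
Kcnc1: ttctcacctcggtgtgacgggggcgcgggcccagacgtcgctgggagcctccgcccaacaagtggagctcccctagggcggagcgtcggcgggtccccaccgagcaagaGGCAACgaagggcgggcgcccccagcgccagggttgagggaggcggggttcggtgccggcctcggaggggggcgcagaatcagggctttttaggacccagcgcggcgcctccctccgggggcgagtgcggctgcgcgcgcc
Kcnj16: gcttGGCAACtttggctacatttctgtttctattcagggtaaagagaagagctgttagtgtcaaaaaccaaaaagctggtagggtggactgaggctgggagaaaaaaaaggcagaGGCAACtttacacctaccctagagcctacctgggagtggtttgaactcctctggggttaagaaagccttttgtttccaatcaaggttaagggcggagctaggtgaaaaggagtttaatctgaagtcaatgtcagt
Kcnab2: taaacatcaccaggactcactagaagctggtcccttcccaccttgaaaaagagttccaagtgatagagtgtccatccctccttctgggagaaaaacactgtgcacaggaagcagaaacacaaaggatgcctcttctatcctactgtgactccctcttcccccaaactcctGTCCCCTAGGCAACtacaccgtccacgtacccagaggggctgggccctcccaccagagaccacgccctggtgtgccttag

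Of 87 channel genes tested in the Rfx1 line, 0 were called in Rfx1_KO against Rfx1_WT with edgeR's quasi-likelihood test at an adjusted p below 0.05. The same test called 0.00723% of all genes in that line and did not call the targeted gene, Rfx1, itself (adjusted p = 0.0687), and DESeq2 also called 0 channel genes. An unadjusted p below 0.05 was reached by 2 channel genes, 2.30%, against 2.03% of all genes tested. Both are calcium channel pore subunits. Cacna1e, of the R-type channel, was at 29.2, 26.5, 27.4 and 29.7 CPM in Rfx1_KO libraries, against 22.3, 22.4, 23.3 and 18.3 CPM in Rfx1_WT, a log2 difference of 0.39 ± 0.09 (SE; adjusted p = 0.9998, edgeR). Cacna1g, of the low-voltage-activated T-type channel, was at 0.673, 0.657, 0.669 and 0.674 CPM in Rfx1_KO, against 0.194, 0.515, 0.471 and 0.376 CPM in Rfx1_WT (log2 difference 0.78 ± 0.30). These 2 genes are also the channel genes whose groups did not overlap, 2 of 87, against 1.50% of all genes tested. The gene with the next smallest p was Kcnj5, a G protein-gated inward rectifier, at 0.505, 0.758, 1.07 and 0.434 CPM in Rfx1_KO against 0.437, 0.360, 0.283 and 0.495 CPM in Rfx1_WT. The other 17 members had too few counts in this line to be tested, among them Kcnj3, Kcnv1, Kcnj11 and Scn1a.

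In the Rfx2 line, 30 of 90 channel genes tested were called, 14 higher and 16 lower in Rfx2_KO. That is 33.3%, against 32.3% of all genes tested there (13.9% higher and 18.4% lower), a share near the background. The counts by class below stand beside these same shares, and no class was tested against them. The median log2 difference was 0.01 over the 90 genes and 0.01 over all genes, and the median absolute difference 0.32 against 0.13. The median absolute difference was also larger in channel genes in the Rfx1 line, with 0 of them called (0.127 against 0.063). Cacna1g, Kcnv1 and Kcnc1 rose most, and Kcnq1, Scn9a, Scn4b, Kcnmb2 and Scn7a fell most. The most abundant channel gene, Kcnj10, was not called. In 15 of the 90 genes the knockout and wild-type libraries did not overlap, 16.7%, against 10.7% of all genes. Not tested for low counts were 14 members, among them Kcnj3, Kcnj5 and Scn1a. The summed ependymal markers were at 1228 to 1527 CPM in Rfx2_KO against 1583 to 3213 CPM in Rfx2_WT, with 11 of 12 markers lower and 0 higher, and the summed oligodendrocyte-lineage markers at 445 to 518 CPM in Rfx2_KO libraries 1 to 3 and 114 to 126 CPM in libraries 4 to 6, against 339 and 356 CPM in Rfx2_WT libraries 1 and 2 and 115 to 149 CPM in the others. Of 9 astrocyte markers 4 were higher and 1 lower in Rfx2_KO. The part of these markers' cell types in the channel results was not tested. In bulk RNA, fewer cells of a type and less RNA per cell cannot be told apart.

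Calcium channel genes gave the largest increase of the Rfx2 line. Cacna1g (chr11:94408391-94474198, GRCm38) was at 1.70 to 2.72 CPM in Rfx2_KO (median 2.05), against 0.151 to 0.415 CPM in Rfx2_WT (median 0.251). Every knockout library lay above every wild-type library, and the fitted ratio was 7.80 (log2 difference 2.96 ± 0.20, adjusted p = 3.13e-06). These levels rest on 51 to 74 counts per Rfx2_KO library and 5 to 12 per Rfx2_WT library. Cacna1e was at 66.2 to 90.4 CPM in Rfx2_KO (median 73.3), against 36.4 to 56.0 CPM in Rfx2_WT (median 44.6), and rose by 0.75 ± 0.08 (adjusted p = 4.64e-05). Its groups did not overlap either. The L-type pore subunit Cacna1c rose by 0.64 ± 0.09 and the beta subunit Cacnb2, which carries pore subunits to the membrane, by 0.63 ± 0.07, both without overlap. The other L-type gene, Cacna1d, was at 89.2 to 131 CPM in Rfx2_KO against 111 to 142 CPM in Rfx2_WT and fell by 0.31 (SE 0.09, adjusted p = 0.0127). Of the 8 calcium channel pore subunits tested 3 rose and 1 fell, and of 8 auxiliary subunits 1 rose and 1, Cacnb4, fell. Over all genes tested in this line, 13.9% rose and 18.4% fell. Without libraries 1 to 3 of both groups the calls of Cacna1d (adjusted p = 0.0764) and Cacnb4 (adjusted p = 0.222) were lost. Of the 5 Cacng genes edgeR called 0 in this line, with 0 at an unadjusted p below 0.05 and 0 by DESeq2. Other settings did call some lower in Rfx2_KO: Cacng4 with the replicate block, and Cacng4 and Cacng5 without libraries 1 to 3 of both groups.

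Among voltage-gated potassium channel pore subunits, 4 of 26 rose and 4 fell, near the background of 13.9% and 18.4% of all genes. Kcnc1, of a fast delayed rectifier, was at 18.2 to 21.7 CPM in Rfx2_KO (median 19.0), against 5.45 to 10.2 CPM in Rfx2_WT (median 6.39). The groups did not overlap, and the ratio was 2.76 (log2 difference 1.47 ± 0.12, adjusted p = 8.58e-06). Kcnv1, which codes for an electrically silent subunit that modifies other channels, was at 0.401 to 0.841 CPM in Rfx2_KO against 0 to 0.281 CPM in Rfx2_WT (log2 difference 2.45 ± 0.37, adjusted p = 0.00031), on 12 to 28 counts against 0 to 11 counts per library. Kcns3, another silent subunit, rose by 0.88 ± 0.26 and Kcna2 by 0.55 ± 0.15, both with overlapping groups. Kcnh2, the ERG channel, was at 2.51 to 3.35 CPM in Rfx2_KO (median 2.87), against 4.70 to 10.6 CPM in Rfx2_WT (median 6.64), and fell by 1.26 (SE 0.18, adjusted p = 0.000198). All knockout libraries lay below all wild-type libraries. Kcnq1, a channel of epithelia and heart, fell by 1.93 (SE 0.41, adjusted p = 0.00282), with 2 to 8 counts per Rfx2_KO library and 7 to 39 per Rfx2_WT library. Without libraries 1 to 3 of both groups the calls of Kcnq1 (adjusted p = 0.0635) and Kcns3 (log2 difference 0.45, adjusted p = 0.30) were lost, and with replicates 1 to 4 only those of Kcns3 (adjusted p = 0.0643) and Kcna2 (adjusted p = 0.082). Of 9 auxiliary subunits tested, Kcnab2, a cytoplasmic beta subunit, was the 1 called, lower by a log2 difference of -0.41 ± 0.12, a call lost in the same 2 settings (adjusted p = 0.0526 and 0.072).

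Inward rectifier, background and ion-activated potassium channel genes moved in both directions in the Rfx2 line. Kcnj16 (chr11:110968033-111027968) was at 34.1 to 75.9 CPM in Rfx2_KO (median 58.3), against 74.4 to 144 CPM in Rfx2_WT (median 104), and fell by 0.97 (SE 0.20, adjusted p = 0.00245). The lowest wild-type library lay within the range of the knockout libraries. Its neighbour on the chromosome Kcnj2, a strong inward rectifier, was at 11.5 to 20.2 CPM in Rfx2_KO against 6.25 to 11.8 CPM in Rfx2_WT and rose by 0.84 ± 0.15 (adjusted p = 0.000783). The mechanosensitive background channels Kcnk2 and Kcnk10 both rose by 0.40, with SE 0.06 and 0.07, and without overlap between groups. An antisense gene covers 12.2% of the exon length of Kcnk2. Kcnk7, a member of the same class for which no current of its own is known, was at 0.535 to 1.0 CPM in Rfx2_KO against 1.25 to 2.69 CPM in Rfx2_WT and fell by 1.33 (SE 0.21). Of 10 calcium- or sodium-activated channel genes tested, Kcnt2, of a sodium-activated channel, rose by 0.85 ± 0.25. Kcnmb2, an inactivating beta subunit of the large-conductance channel, fell by 1.67 (SE 0.41), Kcnt1 by 0.63 (SE 0.16) and the small-conductance channel gene Kcnn2 by 0.41 (SE 0.14). Without libraries 1 to 3 of both groups the calls of Kcnmb2 (adjusted p = 0.126), Kcnt1 (adjusted p = 0.119) and Kcnn2 (adjusted p = 0.168) were lost. The Kcnn2 call was lost in 8 of 22 other settings, 5 of which left out a single library, Rfx2_KO library 1, 4 or 6 or Rfx2_WT library 2 or 3.

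In the same line 1 of 5 sodium channel pore subunits with enough counts rose and 2 fell, against 13.9% and 18.4% of all genes. Scn2a, a neuronal channel, was at 17.6 to 20.2 CPM in Rfx2_KO against 13.0 to 16.2 CPM in Rfx2_WT and rose by 0.33 ± 0.05. Scn9a fell by 1.74 (SE 0.34, adjusted p = 0.0016), on 2 to 6 counts per Rfx2_KO library and 5 to 35 per Rfx2_WT library. Scn7a, whose product senses extracellular sodium, was at 0.105 to 0.568 CPM in Rfx2_KO against 0.692 to 1.79 CPM in Rfx2_WT and fell by 1.56 (SE 0.32). The Scn7a call was lost with replicates 1 to 4 only (adjusted p = 0.067). Of the 4 beta subunits, Scn4b was at 0.780 to 1.66 CPM in Rfx2_KO (median 1.03) against 1.77 to 7.89 CPM in Rfx2_WT (median 2.81) and fell by 1.68 (SE 0.35). Scn3b was at 21.3 to 28.7 CPM in Rfx2_KO against 33.2 to 54.7 CPM in Rfx2_WT and fell by 0.76 (SE 0.11). Scn2b rose by 0.72 ± 0.18, with overlapping groups. Of the 30 calls in this line, 19 held in all 21 or 22 other settings in which the gene was tested, among them those of Cacna1g, Cacna1e, Cacna1c, Cacnb2, Kcnc1, Kcnv1, Kcnh2, Kcnj16, Kcnj2, Kcnk2, Kcnk10, Kcnk7, Kcnt2, Scn2a, Scn2b, Scn3b, Scn4b and Scn9a.

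**Figure D3:**
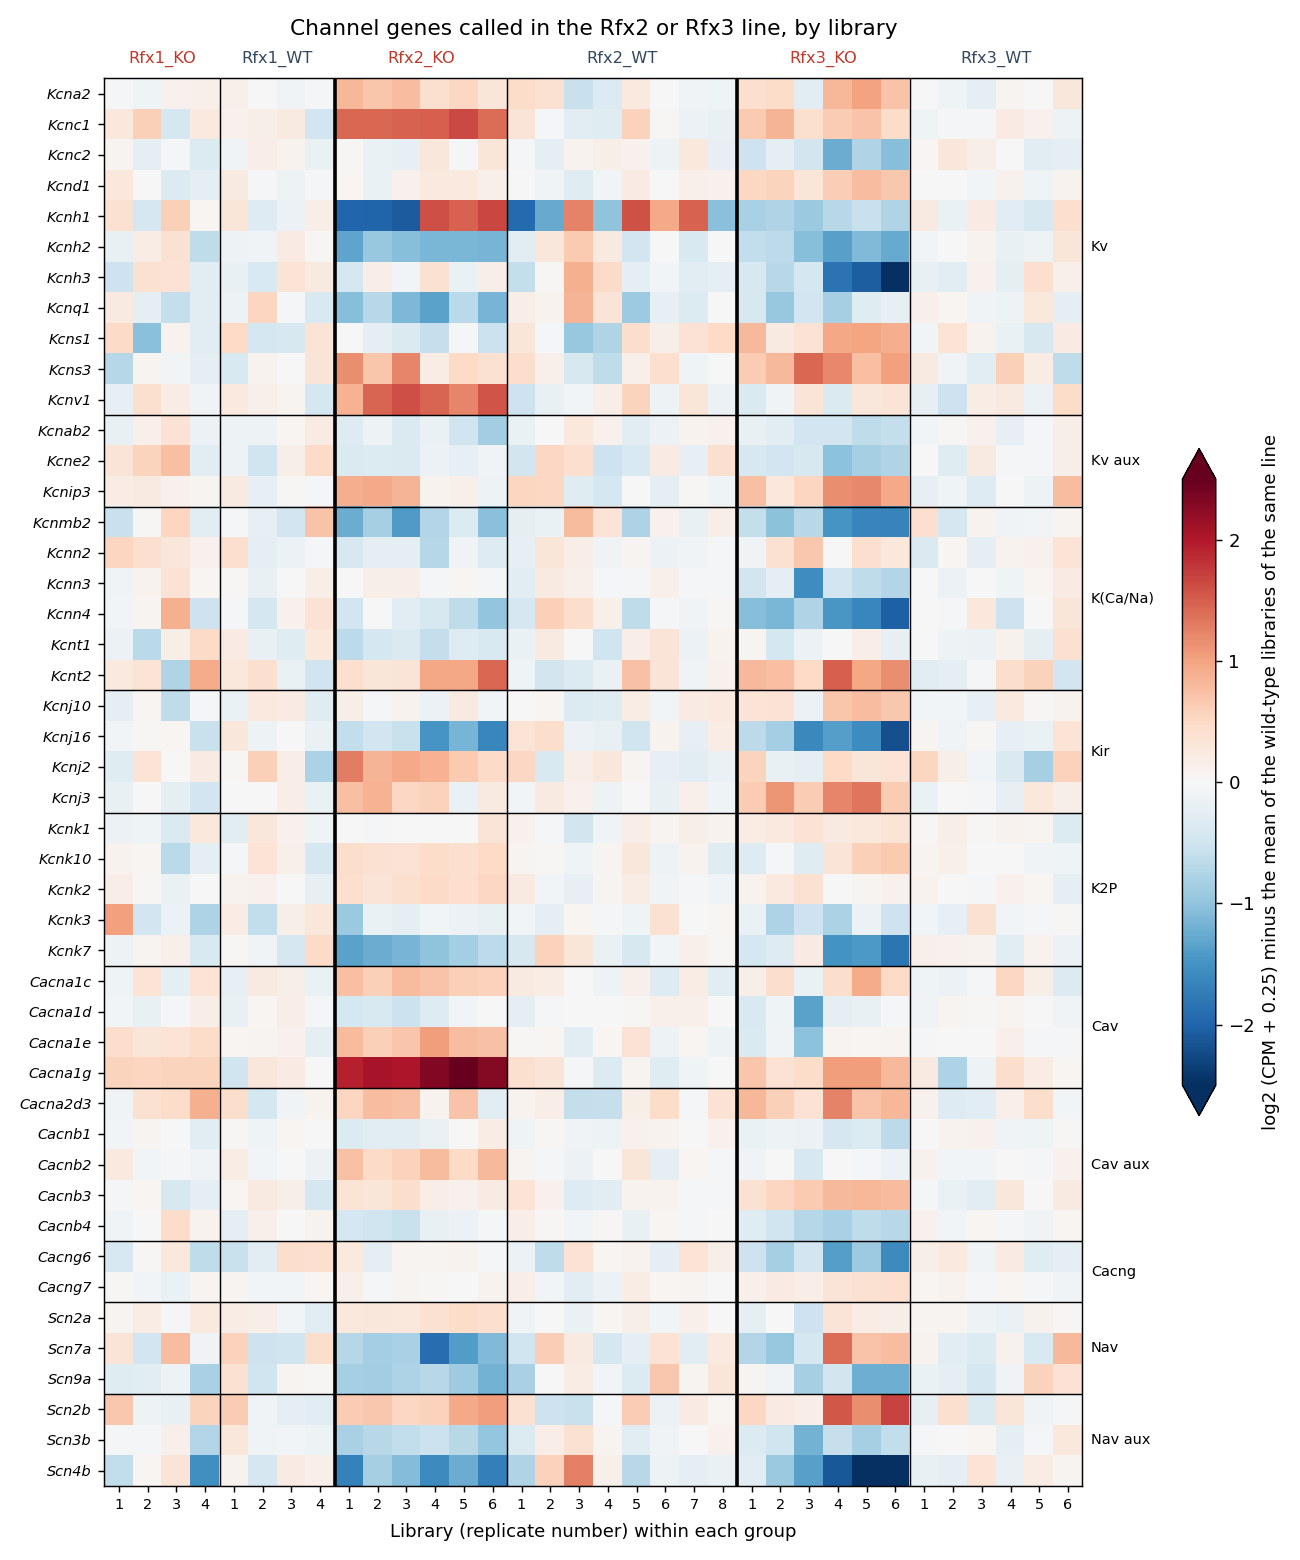
Log2 (CPM + 0.25) of 46 channel genes called in the Rfx2 or Rfx3 line, minus the mean of the wild-type libraries of the same line, with 1 column per library and the knockout left of the wild type; colours saturate at 2.5. Right-hand labels give the class (Kv, voltage-gated potassium; K(Ca/Na), activated by calcium or sodium; Kir, inward rectifier; K2P, pore-domain pair; Cav, calcium; Nav, sodium; aux, auxiliary). Rfx3_KO libraries 4 to 6 carry the strongest colours for Scn4b, Scn2b and Kcnh3, and Kcnh1 takes opposite colours within the Rfx2 groups.

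In the Rfx3 line, 34 of 93 channel genes tested were called, 16 higher and 18 lower in Rfx3_KO. That is 36.6%, against 23.5% of all genes tested there (10.6% higher and 12.9% lower). The counts by class below stand beside these same shares, and no class was tested against them. The median log2 difference was -0.03 over the 93 genes and 0.02 over all genes, and the median absolute difference 0.48 against 0.19. In the Rfx1 line, with 0 channel genes called, the median absolute difference was 0.127 against 0.063. The groups did not overlap in 21 of 93 genes, 22.6%, against 15.7% of all genes tested. Kcnj3 rose most, and Kcnmb2, Scn4b, Kcnn4 and Kcnj16 fell most. Of the 34 calls, those of Kcnj3 and Kcnj16 were kept in all 20 other settings tried. With replicates 1 to 4 only, 1 of 93 channel genes was higher and 1 lower, beside 57 and 137 of all 14311 genes. Without Rfx3_KO libraries 4 to 6, a setting chosen after seeing the data, 5 of 95 channel genes were higher and 6 lower. Over all 14451 genes of that fit, 279 were higher and 717 lower. Without Rfx3_KO library 3, the one that differed by gene length, 22 of 97 were higher and 25 lower. These included all 34 of the calls, and over all 14450 genes 2705 were higher and 2844 lower. Without Rfx3_WT library 6, 17 of 93 were higher and 18 lower, beside 1371 and 1591 of all 14304 genes. The summed level of 12 oligodendrocyte-lineage markers was 210 to 394 CPM in Rfx3_KO libraries 1 to 3 and 456 to 630 CPM in libraries 4 to 6, against 125 to 376 CPM in Rfx3_WT, none of the markers being at 0 in either group. That of 14 neuronal markers was 65.4 to 198 CPM in Rfx3_KO against 66.6 to 83.4 CPM in Rfx3_WT. The part of these cell types in the channel results was not tested. The 11 members with too few counts in this line included Kcnv1, Kcnj5 and Kcnj11.

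Inward rectifiers gave both calls that held throughout. Kcnj16 was at 26.7 to 78.7 CPM in Rfx3_KO (median 44.7), against 107 to 157 CPM in Rfx3_WT (median 122), and fell by 1.32 (SE 0.22, adjusted p = 0.00258). All 6 knockout libraries lay below all wild-type libraries, with 40.2 to 78.7 CPM in Rfx3_KO libraries 1 to 3 and 26.7 to 47.6 CPM in libraries 4 to 6. Kcnj3, of a G protein-gated channel, was at 0.392 to 0.793 CPM in Rfx3_KO against 0.111 to 0.247 CPM in Rfx3_WT (log2 difference 1.73 ± 0.29, adjusted p = 0.00239). These are 10 to 34 counts per Rfx3_KO library and 4 to 8 per Rfx3_WT library, and 31.1% of its exon length overlaps an antisense gene. Without strand information, which no source read here gives, reads of such pairs cannot be told apart. Kcnj10, the most abundant member, was at 659.9 to 1232 CPM in Rfx3_KO (median 1045) against 625 to 857 CPM in Rfx3_WT (median 716) and rose by 0.46 ± 0.14 (adjusted p = 0.0336). Its level was 659.9 to 934 CPM in Rfx3_KO libraries 1 to 3 and 1156 to 1232 CPM in libraries 4 to 6, and without libraries 4 to 6 the adjusted p was 0.292, 1 of 10 other settings in which the call was lost. The summed level of 9 astrocyte markers, none at 0, was 2662 to 3859 CPM in Rfx3_KO libraries 1 to 3 and 5246 to 5627 CPM in libraries 4 to 6, against 2356 to 3055 CPM in Rfx3_WT libraries 1 to 5 and 5145 CPM in library 6, and its part in the Kcnj10 difference was not tested. Of the background channels, Kcnk1 rose by 0.25 ± 0.07 and Kcnk3, which acid inhibits, fell by 0.61 (SE 0.20), calls that were lost in 7 and 15 other settings.

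Among voltage-gated potassium channel pore subunits in the Rfx3 line, 5 of 25 tested rose and 6 fell, against 10.6% and 12.9% of all genes. Kcnc1 was at 13.7 to 18.7 CPM in Rfx3_KO (median 16.3), against 9.37 to 11.9 CPM in Rfx3_WT (median 10.1), and rose by 0.62 ± 0.09 (adjusted p = 0.00162). Kcnd1, an A-type channel gene, was at 10.1 to 14.1 CPM in Rfx3_KO against 7.55 to 8.80 CPM in Rfx3_WT and rose by 0.58 ± 0.09. In both genes the groups did not overlap, and libraries 1 to 3 and 4 to 6 of Rfx3_KO both lay above Rfx3_WT. The silent subunits Kcns3 and Kcns1 rose by 1.11 ± 0.26 and 0.73 ± 0.17, and Kcna2 rose by 0.56 ± 0.18. Kcnh2 was at 4.02 to 6.87 CPM in Rfx3_KO (median 4.87), against 9.28 to 13.2 CPM in Rfx3_WT (median 10.4), and fell by 1.04 (SE 0.15, adjusted p = 0.00128). Its relatives Kcnh1 and Kcnh3 fell by 1.06 (SE 0.21) and 1.21 (SE 0.38). Kcnh3 was at 3.87 to 4.81 CPM in Rfx3_KO libraries 1 to 3 and at 0.862 to 1.62 CPM in libraries 4 to 6, against 5.35 to 8.74 CPM in Rfx3_WT. The Kcna2 and Kcnh3 calls were each lost in 11 of 20 other settings, 8 and 7 of which left out a single library, and without Rfx3_KO libraries 4 to 6 the log2 difference of Kcna2 was 0.22 (adjusted p = 0.351). The Kcnh1 call was lost in a fit of all 6 groups (adjusted p = 0.263). Kcnc2 fell by 0.71 (SE 0.17) and Kcnq1 by 0.71 (SE 0.21), the Kcnq1 call being lost in 10 other settings. Of 10 auxiliary subunits tested, Kcnip3, which binds calcium and A-type channels, rose by 0.80 ± 0.21, while Kcne2 fell by 0.99 (SE 0.22) and Kcnab2 by 0.46 (SE 0.09).

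Of 10 calcium- or sodium-activated channel genes tested in the Rfx3 line, 3 fell and 1, Kcnt2, rose by 1.08 ± 0.26. Kcnn4, the intermediate-conductance channel, was at 1.02 to 2.86 CPM in Rfx3_KO (median 1.88), against 3.40 to 6.20 CPM in Rfx3_WT (median 4.99), and fell by 1.44 (SE 0.23, adjusted p = 0.00202). Kcnmb2 was at 0.157 to 0.601 CPM in Rfx3_KO against 0.719 to 1.48 CPM in Rfx3_WT and fell by 1.65 (SE 0.33). Kcnn3, a small-conductance channel gene, was at 41.9 to 105 CPM in Rfx3_KO against 111 to 141 CPM in Rfx3_WT and fell by 0.65 (SE 0.17), or by 0.51 without Rfx3_KO library 3. In these 3 genes no knockout library reached a wild-type library. The calcium channel pore subunits gave 1 call of 8 tested, Cacna1g, at 0.387 to 0.772 CPM in Rfx3_KO (median 0.588) against 0.0399 to 0.425 CPM in Rfx3_WT (median 0.291). The groups overlapped, the log2 difference was 1.11 ± 0.34 (adjusted p = 0.0351), and the call was lost in 10 other settings, with adjusted p = 0.253 without Rfx3_KO libraries 4 to 6. Cacnb3 rose by 0.66 ± 0.11 and Cacna2d3, an extracellular alpha2delta subunit, by 0.77 ± 0.16, while Cacnb4 fell by 0.63 (SE 0.09, adjusted p = 0.00098) and Cacnb1 by 0.32 (SE 0.09), a call lost in 7 other settings. An antisense gene covers 16.0% of the exon length of Cacnb4. Cacng7 was at 129 to 158 CPM in Rfx3_KO against 111 to 126 CPM in Rfx3_WT and rose by 0.26 ± 0.06, and its relative Cacng6 fell by 1.14 (SE 0.25).

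Of the 7 sodium channel pore subunits tested in the Rfx3 line, edgeR called 0, with 0 at an unadjusted p below 0.05 and 0 by DESeq2. Scn4b was at 1.29 to 9.38 CPM in Rfx3_KO (median 3.35), against 9.74 to 14.5 CPM in Rfx3_WT (median 10.9), and fell by 1.49 (SE 0.40, adjusted p = 0.020). Scn3b was at 20.1 to 36.1 CPM in Rfx3_KO against 38.7 to 55.2 CPM in Rfx3_WT and fell by 0.67 (SE 0.13). Scn2b rose by 1.06 ± 0.30, with overlapping groups. It was at 2.35 to 3.08 CPM in Rfx3_KO libraries 1 to 3 and at 4.94 to 7.29 CPM in libraries 4 to 6, against 1.56 to 2.83 CPM in Rfx3_WT. The Scn2b call was lost in 9 other settings. Without libraries 4 to 6 the adjusted p was 0.309 for Scn2b, 0.0663 for Scn4b and 0.0512 for Scn3b. Scn7a was at 0.258 to 0.470 CPM in Rfx3_KO libraries 1 to 3 and at 1.35 to 2.32 CPM in libraries 4 to 6, against 0.494 to 1.45 CPM in Rfx3_WT. The Scn7a libraries of the knockout thus lay in separate ranges, and the gene was not called.

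**Figure D4:**
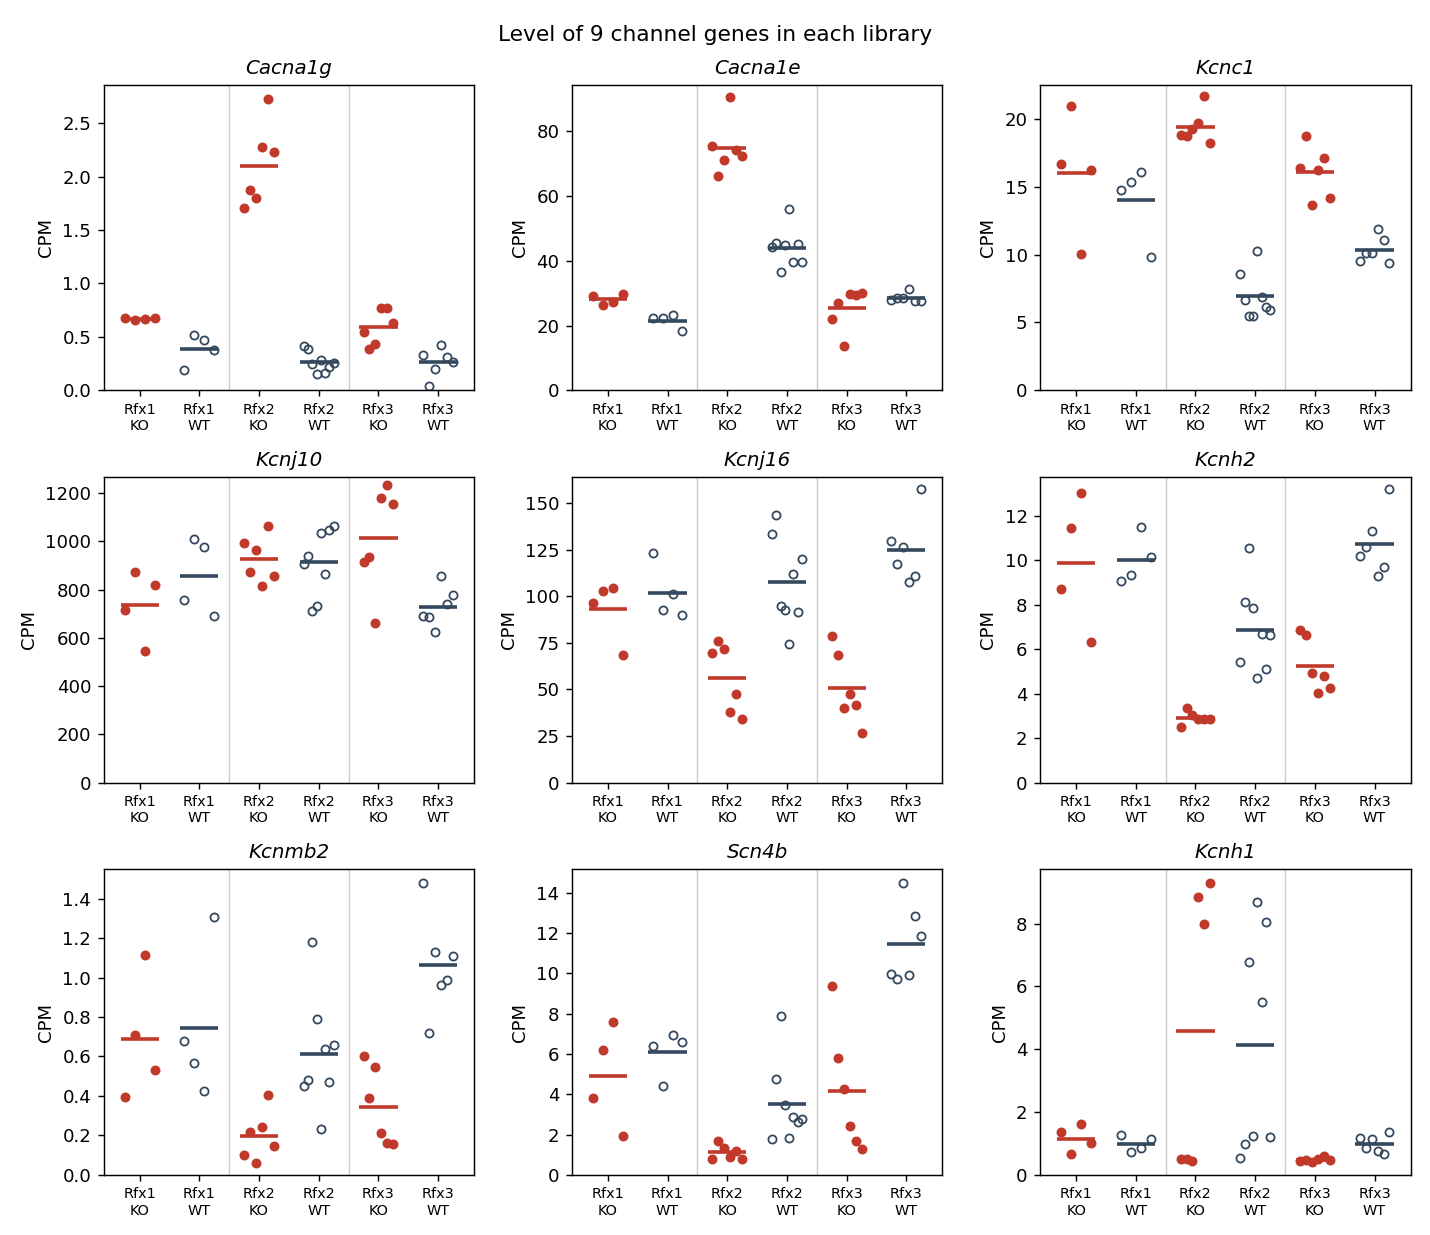
CPM of 9 channel genes in each library (filled, knockout; open, wild type), with the mean as a line. Cacna1g at 1.70 to 2.72 CPM and Kcnc1 at 18.2 to 21.7 CPM in Rfx2_KO lie above all Rfx2_WT libraries, and Kcnh2 lies below its wild-type groups in both the Rfx2 and the Rfx3 line.

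Of the 88 channel genes tested in both the Rfx2 and the Rfx3 line, which share no library, 6 were higher in both knockouts and 9 were lower in both. The 6 were Cacna1g, Kcna2, Kcnc1, Kcns3, Kcnt2 and Scn2b, 46.2% of the 13 higher in Rfx2_KO and 40.0% of the 15 higher in Rfx3_KO among these 88. The 9 included Cacnb4, Kcnab2, Kcnh2, Kcnj16, Kcnmb2, Kcnq1, Scn3b and Scn4b, and they made up 56.3% of the 16 lower in Rfx2_KO and 50.0% of the 18 lower in Rfx3_KO. Over all 14086 genes tested in both lines, 458 were higher in both, 23.2% of those higher in Rfx2_KO and 30.4% of those higher in Rfx3_KO, and 1216 were lower in both, 46.3% and 66.8% of each list. Of the 88 channel genes, 0 were called in opposite directions. Among all 14086 genes, 38 were higher in Rfx2_KO and lower in Rfx3_KO, 1.93% of those higher in Rfx2_KO. The reverse held for 18, 0.685% of those lower in Rfx2_KO. At such low shares, 0 of 88 lies near the background. Kcnj16 at 0.512 times the wild-type level in Rfx2_KO and 0.401 times in Rfx3_KO had the highest wild-type level per kb of the channel genes called in both lines.

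**Figure D5:**
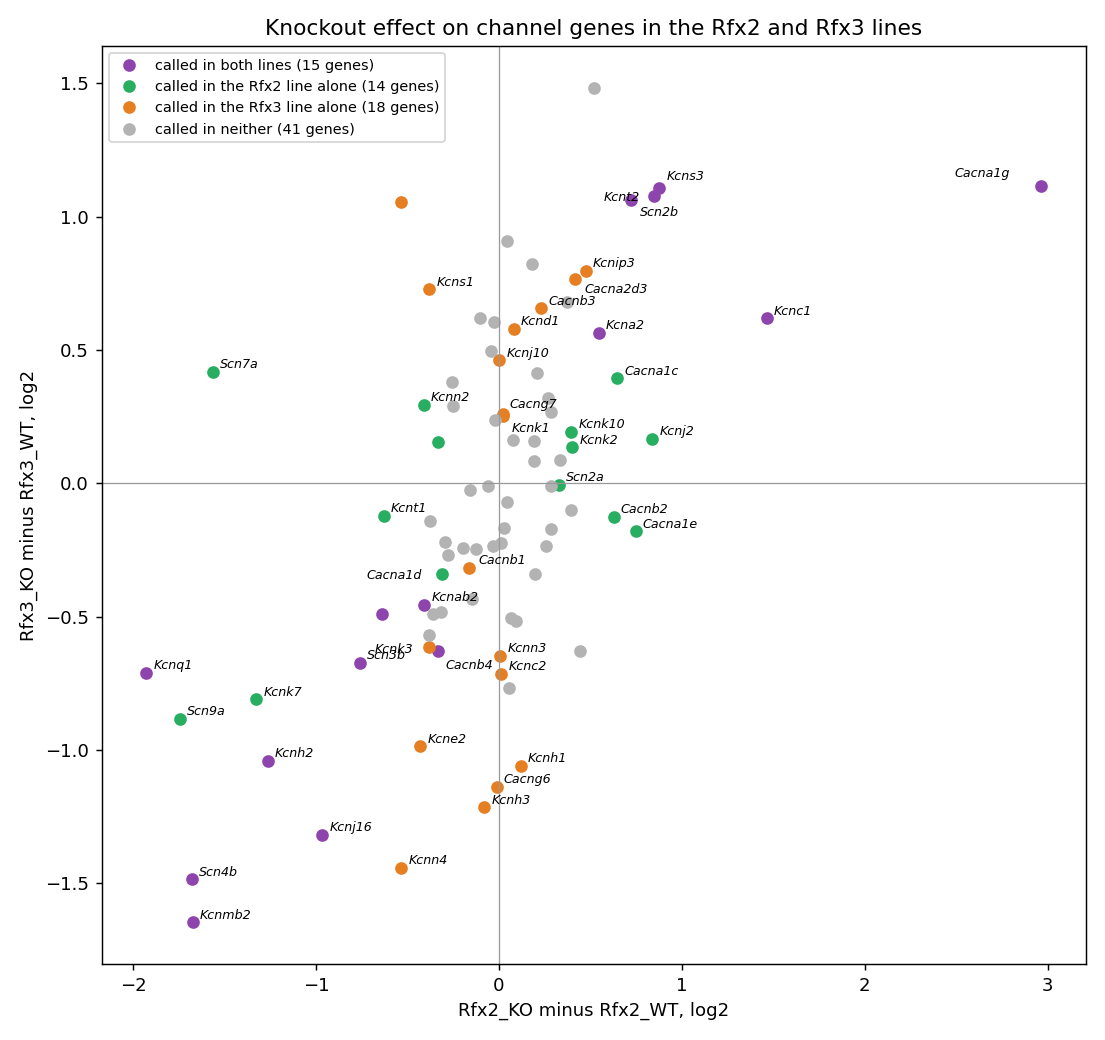
Log2 difference of knockout minus wild type in the Rfx2 line (x axis) and the Rfx3 line (y axis) for the 88 channel genes tested in both, coloured by the line in which a gene was called. The 15 genes called in both lie at the upper right (6) and the lower left (9).

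The knockout effect itself differed between the Rfx2 and Rfx3 lines for 11 of 101 channel genes tested, 8 with a positive and 3 with a negative difference, in a fit of all 34 libraries. That is 10.9%, against 3.84% of all genes (2.10% positive and 1.74% negative). Without Rfx3_WT library 3, 7 channel genes were left. Over all genes the 312 positive and 258 negative differences became 242 and 170. Cacnb2 differed by 0.77 ± 0.11 (log2, Rfx2 effect minus Rfx3 effect, adjusted p = 5.4e-05), since it averaged 56.8 ± 5.95 CPM in Rfx2_KO (n = 6) against 36.2 ± 4.10 CPM in Rfx2_WT (n = 8), and 23.2 ± 2.24 CPM in Rfx3_KO against 25.1 ± 1.42 CPM in Rfx3_WT (n = 6 each). Cacna1e differed by 0.94 ± 0.16 (adjusted p = 0.000524) and Cacna1g by 1.86 ± 0.37 (adjusted p = 0.00258). Kcnc1, called higher in both lines, differed by 0.86 ± 0.20 (adjusted p = 0.00938). Its level in the knockouts was 19.4 ± 1.22 CPM in Rfx2_KO and 16.0 ± 1.87 CPM in Rfx3_KO, and in the wild types 6.92 ± 1.67 CPM in Rfx2_WT (n = 8), 10.4 ± 0.976 CPM in Rfx3_WT (n = 6) and 14.0 ± 2.86 CPM in Rfx1_WT (n = 4). The mean of this gene thus also differed between the wild-type groups, and the part of differences between the lines in this was not tested.

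Against the Rfx1 line, the effect differed for 4 of 101 channel genes in the Rfx2 line, against 0.829% of all genes (0.593% positive and 0.236% negative). It differed for 13 of 101 in the Rfx3 line, against 7.75% (4.79% positive and 2.95% negative). Both contrasts use the same Rfx1 libraries. The 4 were Kcnc1 (log2 difference of the effects, Rfx1 minus Rfx2, -1.29 ± 0.22, adjusted p = 0.00259), Cacna1g (-2.20 ± 0.43), Cacnb2 (-0.63 ± 0.13) and Kcnh2 (1.22 ± 0.27). Of the 13, Cacnb4 (Rfx1 minus Rfx3, 0.75 ± 0.15, adjusted p = 0.00425), Cacnb3 (-0.83 ± 0.18), Kcnd1 (-0.65 ± 0.15), Kcnn4 (1.59 ± 0.39) and Kcnn3 (0.75 ± 0.20) had the smallest p. The 13 became 2 without Rfx1_KO library 3 and 5 without Rfx1_WT library 2. Over all genes the 711 positive and 438 negative differences became 174 and 112, and 280 and 213, in these settings. Without Rfx1_WT library 1, Rfx1_WT library 3 or Rfx3_KO library 6 the 13 became 8. Over all genes 411, 505 and 420 were then positive and 246, 314 and 291 negative. The 4 became 7 without Rfx2_WT library 5, where the 88 positive and 35 negative over all genes became 211 and 53.

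A list of 84 other channels and channel partners, 79 of them in the table, gave 0 edgeR calls of 51 tested in the Rfx1 line and 0 at an unadjusted p below 0.05. In the Rfx2 line 4 of 59 were higher and 10 lower, 23.7% in all against 32.3% of all genes tested there. In the Rfx3 line 3 of 57 were higher and 12 lower, 26.3% against 23.5% of all genes. Lower in both were Hcn4, of a hyperpolarization-activated channel, Dpp6, a partner of A-type potassium channels, and the polycystin genes Pkd1l1 and Pkd2l2. Dpp6 averaged 11.1 ± 3.06 CPM in Rfx2_KO (n = 6) against 18.7 ± 7.42 CPM in Rfx2_WT (n = 8), and 13.1 ± 7.06 CPM in Rfx3_KO against 34.4 ± 4.06 CPM in Rfx3_WT (n = 6 each). Pkd1l1 fell by 2.13 (SE 0.34) in Rfx2_KO and by 1.93 (SE 0.36) in Rfx3_KO. Nalcn, the sodium leak channel, rose by 0.43 ± 0.07 in Rfx2_KO (adjusted p = 0.000358), whereas its partner Unc79 fell by 0.88 (SE 0.22). Scnn1a, of the epithelial sodium channel, fell by 1.62 (SE 0.22) in Rfx3_KO.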

How the data were processed

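Bulk RNA-seq of 34 libraries was used, as raw counts per gene that the authors deposited in 1 table. Per the labels, total RNA went into TruSeq libraries. The submitters' processing notes name CASAVA 1.8.2, STAR 2.4, featureCounts 1.4.6 and the build GRCm38. Nothing read here names the strand setting or the gene annotation used for counting. Symbols, coordinates and exon lengths came from GENCODE M21. The members and all gene lists were chosen with earlier results of these data known.

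The test within a line used edgeR 4.0.16 under R 4.3.3 (quasi-likelihood test, TMM scaling, genes with a count of at least 10 in enough libraries and a total of at least 15), and p-values were adjusted by Benjamini-Hochberg over all genes kept, with calls at 0.05. SE is the log2 difference divided by the square root of F. Differences between lines came from 1 fit of 34 libraries in 6 groups. CPM used TMM factors over all libraries, and levels were compared between genes per kb of exon. The test was checked on simulated data. Total counts per library, between 18.2 and 53.4 in units of 1e6, limit the precision of genes below 1 CPM.

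Genes named were the 10 largest increases and the 10 largest decreases called per line, the 3 smallest p-values in the Rfx1 line, the 5 smallest p-values per contrast between lines, the 8 highest levels, Kcnj10, Kcnj16 and up to 10 genes called alike in the Rfx2 and Rfx3 lines. Results of some members are not reported here. Other genes named were chosen after their values were seen. Alternatives were DESeq2 1.42.0, its size factors in edgeR, no low-count filter, a replicate block, a term for Y-linked counts, a fit of all groups, replicates 1 to 4, Rfx2 libraries 1 to 3 left out, and each library left out. Same-numbered Rfx2 libraries deviated together, with correlations of 0.160 to 0.614 in 6 pairs. Differently numbered libraries were not compared, so these values cannot show whether the numbers pair them. The labels do not state such pairs. The tests within a line therefore used no replicate block, which was run as an alternative. No 2 of 85 replicate pairs were copies. Sequence from mouse RefSeq promoters was used only as letters.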

Additional observations from a re-analysis of the deposited data

Results flagged for a closer look

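In 252 groups of libraries of the named genes, 1 library lay far from the others 13 times, where chance alone flags about 1 in 20 groups. In the Rfx1 line these were Cacna1a in Rfx1_KO library 2 (132 CPM), Cacnb2 in Rfx1_KO library 1 (24.9 CPM), and Scn2b (2.38 CPM) and Scn3b (61.0 CPM) in Rfx1_WT library 1. In the Rfx2 line they were Kcnk1 in Rfx2_KO library 6 (117 CPM), Kcnk1 in Rfx2_WT library 3 (68.1 CPM) and Cacna1e in Rfx2_WT library 5 (56.0 CPM). In the Rfx3 line, Rfx3_KO library 3, which differed by gene length, was low for Cacna1a (74.3 CPM) and Kcnd3 (89.3 CPM). Rfx3_WT library 6, with its high Pdgfra, was high for Kcnip3 (24.7 CPM) and Scn7a (1.45 CPM) and low for Kcnk1 (68.2 CPM), and Cacna1e was high in Rfx3_WT library 4 (31.3 CPM).

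Of the knockout effects that differed between lines by edgeR's test of the difference itself, 26 are given here as log2 differences. Rfx2 minus Rfx3 gave Kcnv1 2.59, Cacna1g 1.86, Cacng6 1.14, Cacna1e 0.94, Kcnc1 0.86, Cacnb2 0.77, Kcnc2 0.74, Kcnn3 0.67, Kcnd1 -0.49 and Kcns1 -1.10. Rfx1 minus Rfx2 gave Kcnh2 1.22, Cacnb2 -0.63, Kcnc1 -1.29 and Cacna1g -2.20. Rfx1 minus Rfx3 gave Kcnn4 1.59, Kcne2 1.43, Kcnj16 1.18, Kcnh2 1.01, Kcnn3 0.75 and Cacnb4 0.75 on the positive side. On the negative side it gave Cacng7 -0.31, Kcnd1 -0.65, Kcnj10 -0.69, Cacnb3 -0.83, Kcns3 -1.45 and Kcnj3 -2.59.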

How the results depend on the processing

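In the Rfx1 line 0 channel genes were called in each setting tried. In the Rfx3 line the 16 higher genes became 9 with a term for Y-linked counts and 1 with replicates 1 to 4 only. They became 5 without Rfx3_KO libraries 4 to 6. Over all genes the 1517 higher became 895, 57 and 279 in these settings. The 18 lower genes became 1 and 6 in the last 2 settings, where the 1857 lower over all genes became 137 and 717. The cause was not tested. With 1 library left out, 14 to 18 channel genes were higher and 14 to 18 lower in Rfx2_KO. Over all genes, 1623 to 2487 were higher and 2266 to 2783 lower there. In Rfx3_KO 11 to 22 channel genes were higher and 14 to 25 lower, beside 850 to 2705 and 1289 to 2844 over all genes. The count of channel genes whose effects differ then ran between 7 and 14 for Rfx2 minus Rfx3. It ran between 3 and 7 for Rfx1 minus Rfx2, and 2 and 17 for Rfx1 minus Rfx3. Over all genes, 198 to 525 differences were positive and 170 to 436 negative for Rfx2 minus Rfx3. For Rfx1 minus Rfx2 these were 31 to 211 and 15 to 54, and for Rfx1 minus Rfx3 174 to 1215 and 112 to 826. With the replicate block 18 channel genes were higher and 18 lower in Rfx2_KO, with all 30 calls kept. Over all genes, 1804 were higher and 2400 lower with the block. Correlations of same-numbered libraries were -0.0894 to 0.454 in the Rfx1 line and -0.364 to 0.204 in the Rfx3 line. Differently numbered libraries were not compared, so pairing by number was not settled in any line. The block gave 14 higher and 15 lower channel genes in Rfx3_KO and 0 in Rfx1_KO. Over all genes it gave 795 higher and 1410 lower in Rfx3_KO and 0 in Rfx1_KO. Between lines it gave 8, 3 and 11 differences in channel genes in the order above. Over all genes it gave 211 positive and 131 negative, then 34 and 17, then 575 and 345. For the named genes, 2825 comparisons with an alternative kept the call or its absence, 236 lost the call and 36 gained one. In 0 comparisons with a call in either setting did the direction change. Changes of direction in genes called in neither setting are among the 2825. Scn7a in the Rfx3 line had a log2 difference of 0.38 with replicates 1 to 4 only and -1.11 without Rfx3_KO libraries 4 to 6. Genes below 1 CPM rest on few counts.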

Other observations

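Kcnh1, an ether-a-go-go channel gene, took 2 ranges of level within the Rfx2 line. It was at 0.451 to 0.501 CPM in Rfx2_KO libraries 1 to 3 and at 7.98 to 9.28 CPM in libraries 4 to 6, against 6.78, 8.68, 5.51 and 8.03 CPM in Rfx2_WT libraries 3, 5, 6 and 7 and 0.519 to 1.24 CPM in the other 4. In the Rfx1 and Rfx3 lines all 20 libraries lay between 0.392 and 1.60 CPM. The gene was not called in the Rfx2 line (log2 difference 0.12 ± 0.81).

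Of the 104 channel genes, 13 neighbouring pairs lie within 100 kb of each other, and in 3 of them both genes were called in the same line. These 3 were chosen by their calls. Of the channel genes tested, 33.3% were called in the Rfx2 line and 36.6% in the Rfx3 line, so some such pairs can arise without any link between neighbours. The share over neighbouring pairs of all genes was not computed. Scn2b and Scn4b on chromosome 9 are 8.33 kb apart, and Scn2b rose while Scn4b fell in both Rfx2_KO and Rfx3_KO. Kcnj16 and Kcnj2 on chromosome 11 are 38.2 kb apart, and Kcnj16 fell while Kcnj2 rose in Rfx2_KO. Scn9a and Scn7a on chromosome 2 are 38.5 kb apart, and both fell in Rfx2_KO.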
